A study of Mus musculus with 8 samples.

Results

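The liver was followed across birth and suckling, from embryonic day 18 (E18), when the organ still makes blood and is fed through the placenta, to postnatal day 14 (P14), when pups live on milk. The members were chosen by their stage label alone, which gave 2 E18 and 2 P14 samples out of 8, and 17081 genes passed edgeR's filter on low counts out of 22059 listed. Each sample was polyadenylated RNA from the whole liver of mice of the inbred strain FVB (labels), given as wild-type FVB/NJ in the Methods. The labels and Methods used here give no treatment for these samples. The E18 group and the P14 group were described as biological duplicates, and no litter, pooling or sequencing date was given. The Methods say that the study used mice of both sexes, and the labels do not give the sex of a sample. P-values measure only the spread between these samples, which may be technical in part. Sex-linked transcripts, given below, differed between the duplicates of each stage. The P28 and adult (3 months) samples, 2 of each, entered the fit. Their levels are given beside some genes.

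The fetal liver is the main site where red cells, granulocytes and platelets are made before bone marrow takes over. Hepatocytes at that stage secrete alpha-fetoprotein and divide, and glucose reaches them from the mother. After birth the newborn has to make its own glucose, burn the fat of milk, make ketone bodies, dispose of nitrogen as urea, secrete bile and clear foreign compounds, and these are functions of the mature hepatocyte.

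Depth was 86871322 and 79509520 counted reads in the E18 samples and 106055723 and 104340001 in the P14 samples. Whether read mates were counted separately was not stated. Across genes, which are not independent replicates, log2(RPKM + 1) of the duplicates correlated with Pearson's r of 0.9956 at E18 and 0.9971 at P14. The stages differed in composition, since 590 and 579 genes held 50% of the reads in the E18 samples and 89 and 81 genes in the P14 samples. Levels below are CPM (counts per 1000000 reads) scaled by TMM, which takes most genes to be unchanged. Its factors were 1.598 and 1.539 at E18 and 0.865 and 0.854 at P14. Scaling by library size alone moved the median log2 fold change of all tested genes by -0.867, so under that scaling a rise had to be larger and a fall could be smaller to be called. As a tissue check, both stages held the hepatocyte transcripts Alb, for albumin, and Ttr, for transthyretin, with Ttr at 1219 and 1453 CPM at E18 and 12909 and 13988 CPM at P14.

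A gene was called higher or lower when edgeR's quasi-likelihood test gave a Benjamini-Hochberg false discovery rate (FDR) below 0.1 and the change was over 3-fold. By this rule 2353 genes (13.8% of those tested) rose from E18 to P14 and 2636 (15.4%) fell. At an FDR below 0.1 alone, whatever the size of change, 13236 of 17081 genes differed. TMM's premise of mostly unchanged genes was thus not met by this test, and the zero point of the fold changes rests on the scaling. Both P14 samples lay beyond both E18 samples in 2345 of the rising and 2635 of the falling genes. With 2 samples a stage the call itself nearly fixes that outcome, so it describes the called genes and is no support for the calls. Over 10-fold changes were found in 699 rising and 902 falling genes, and the median log2 fold change of all tested genes was -0.03. The falling genes made up 52.84% of the called genes under TMM, 54.23% under median-ratio scaling and 80.1% under library size alone, where 1266 genes rose and 5095 fell. The same 1266 genes were among the 2353 rising under TMM, and all 2636 falling genes were still called falling.

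Some genes crossed from near absence to presence. A gene was said to appear when it was called higher and read below 0.1 CPM in both E18 samples and above 1 CPM in both P14 samples, and to vanish in the reverse case. By this definition 79 genes appeared (0.463% of those tested) and 88 vanished (0.515%). The genes that appeared were led by hepatocyte enzymes and transporters, whereas those that vanished included embryonic globins, pancreatic enzymes, the intestinal regulator Cdx2 and 15 microRNA genes. The plot of mean levels shows Afp and Alb at opposite sides of the line of equal level, with the genes that appeared and vanished along the 2 axes.

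**Figure D1:**
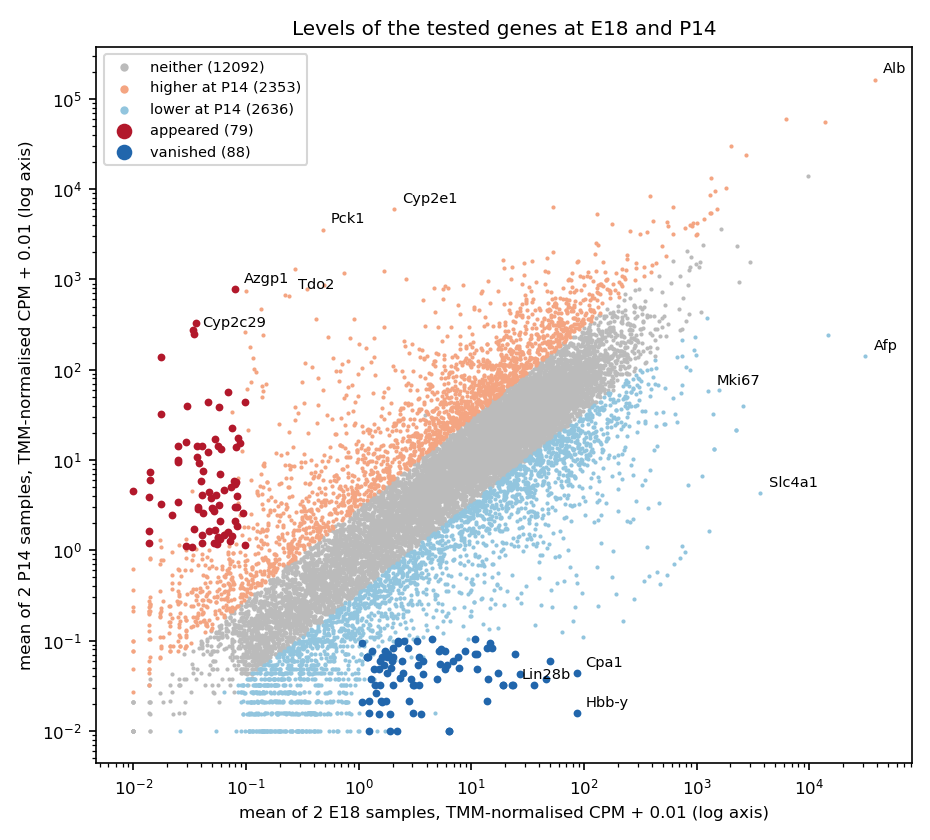
Mean TMM-normalised CPM of each tested gene at E18 (x axis) and P14 (y axis), both with 0.01 added and on log axes, for 17081 genes. The 2353 genes higher and 2636 lower at P14 lie on either side of the diagonal, and the 79 genes that appeared and 88 that vanished are drawn as larger points close to the y and x axes.

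Erythroid transcripts had the lowest median fold change of the 46 gene lists examined. The red-cell list holds surface proteins, globins, membrane skeleton proteins and the factors that switch them on, and all 34 tested members fell (0 rose), with a median log2 fold change of -8.73 against -0.03 over all tested genes. The median was -8.51 when Hbb-bh1, which had no reads at P14, was set at its bound. Together these transcripts held 3.5 and 4.22% of the reads at E18 and 0.0498 and 0.0468% at P14. In bulk liver, fewer cells of a type and less RNA per cell cannot be told apart, here and for every cell type below. Slc4a1, the anion exchanger of the red-cell membrane, fell from 3300.4 and 4052 CPM at E18 to 3.56 and 4.94 CPM at P14 (log2 fold change -9.76 ± 0.27 SE, edgeR FDR 1.1e-08). The 2 samples of a stage lay close together and far from the other stage, which describes a called gene and is no support for its call.

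The transcription factors of the red-cell programme fell too. Gata1, the factor that sets the erythroid programme, fell from 156 and 202 CPM at E18 to 0.393 and 0.595 CPM at P14 (log2 fold change -8.50 ± 0.22 SE, edgeR FDR 9e-09). Klf1, which acts on adult globin genes, fell from 287 and 368 CPM at E18 to 4.94 and 5.68 CPM at P14 (log2 fold change -5.95 ± 0.20 SE, edgeR FDR 2.2e-08). In both genes the samples of the 2 stages lay far apart, which again only describes called genes. Add2, an adducin of the membrane skeleton, fell from 30558 and 27701 reads at E18 to 10 and 18 reads at P14 (log2 fold change -10.48 ± 0.20 SE, edgeR FDR 3.8e-09).

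Globins were read with care, because adult globin genes exist in near-identical copies that share reads. Beta-s, a beta-globin entry of the files, read 10857 and 18259 CPM at E18 and 264 and 218 CPM at P14 (log2 fold change -5.92 ± 0.30 SE, edgeR FDR 2.3e-07), and the entries Hbb-b1 and Hbb-b2 held nearly the same reads as each other in every sample and cannot be told apart. The embryonic globin Hbb-y gave 14873 and 8049 reads at E18 and 0 and 1 at P14, an E18 to P14 ratio of 15870.0 (exact 95% counting interval 2848 to 626900.0). Another embryonic globin, Hbb-bh1, gave 712 and 907 reads at E18 and 0 and 0 at P14 and was at least 189-fold lower at P14, taking 3 reads per library as the smallest value the depth can show. Intervals and floors cover counting error only. Both embryonic globins were thus detected at E18 and were at or under that floor at P14. Heme synthesis split by isoenzyme. Of its 9 tested genes 7 fell and 1 rose (median -2.62). Alas2, the first enzyme of the pathway in red cells, fell from 1135 and 1639 CPM at E18 to 35 and 29 CPM at P14 (log2 fold change -5.44 ± 0.21 SE, edgeR FDR 5e-08). Alas1, the same step in other cells including hepatocytes, rose from 32.2 and 36.3 CPM at E18 to 686 and 433 CPM at P14 (log2 fold change 4.03 ± 0.50 SE, edgeR FDR 7.3e-05).

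The start regions of the erythroid genes were searched for the letters AGATAA on either strand, a form of the site that GATA factors read, in the 250 bases before the gene start (RefSeq, GRCm38.p6). A promoter was given for 23 members, and 8 of them held it (34.78%), against 6.86% of the 13041 tested genes with one. The cytochrome P450 list, at 19.23%, had the next largest share of the 6 lists searched. The letters CCACACCC, a form of the CACCC box, stood in 0 of the same 23 promoters, against 3.44% of tested genes. A match is a description and not a site. The 30-base windows of 4 of the 8 with AGATAA are shown, with the match in capitals and in the gene's own direction. They show where the letters lie in these 4 genes, and binding of any factor was not tested.
Alas2, chrX:150547319-150547348, plus strand: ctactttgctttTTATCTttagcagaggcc
Epb4.2, chr2:121037086-121037115, minus strand: gtctctatttccTTATCTcgttcaaacaga
Rhd, chr4:134864481-134864510, plus strand: cccggcagcctgAGATAAgacctttggcgg
Kel, chr6:41704364-41704393, minus strand: cctgagaaactaAGATAAaagaggaggtga
The first pair carry the letters on the opposite strand, where they read TTATCT. The genes shown encode a heme enzyme, a membrane skeleton protein and 2 blood group proteins.

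A pair of microRNA genes that sit side by side on chromosome 11 and are known for their abundance in red cells followed the same course. The reads are of polyadenylated primary transcripts, so they say nothing of mature microRNA amounts. Mir451 gave 831 and 949 reads at E18 and 4 and 5 at P14 (log2 fold change -7.07 ± 0.41 SE, edgeR FDR 4.7e-07). Mir144 gave 418 and 459 reads at E18 and 5 and 3 at P14 (log2 fold change -6.21 ± 0.43 SE, edgeR FDR 1.6e-06). Both vanished by the definition above. The reads of Mir486, whose position overlaps the entry Mir3107, went from 2276 and 2698 reads to 3 and 1, and Ank1, the red-cell ankyrin, read 513 and 569 CPM at E18 and 0.393 and 0.651 CPM at P14. The mature sequences of the first pair, from RefSeq on GRCm38.p6, are shown with the seed (bases 2 to 8) in capitals, because the seeds define which targets a change in these genes could touch, and no seed is shared among them.
miR-451a, chr11:78073186-78073207, plus strand: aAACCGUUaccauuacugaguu
miR-144-3p, chr11:78073047-78073066, plus strand: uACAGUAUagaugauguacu
miR-144-5p, chr11:78073010-78073032, plus strand: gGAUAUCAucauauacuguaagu

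The lists of other blood lineages made in the fetal liver had medians nearer to 0. Of 18 tested markers of stem and progenitor cells 11 fell and 1 rose (median -1.90). Of 19 neutrophil and precursor genes 13 fell and 0 rose (median -2.06). Of 16 megakaryocyte and platelet genes 13 fell and 1 rose (median -3.27). Among mast cell, basophil and eosinophil genes 7 of 11 fell and 1, the granzyme Gzmb, rose (median -2.73). Mpo, the myeloperoxidase of neutrophil precursors, fell from 286 and 259 CPM at E18 to 6.57 and 7.12 CPM at P14 (log2 fold change -5.31 ± 0.16 SE, edgeR FDR 1.6e-08). Elane, neutrophil elastase, fell from 41.1 and 44.4 CPM at E18 to 1.91 and 2.61 CPM at P14 (log2 fold change -4.24 ± 0.23 SE, edgeR FDR 3.2e-07). S100a8, a protein of mature neutrophils, fell by less, from 169 and 219 CPM at E18 to 34.2 and 36.8 CPM at P14 (log2 fold change -2.45 ± 0.28 SE, edgeR FDR 4.3e-05). The duplicates did not overlap between stages in any of these genes. That held for 2635 of all 2636 falling genes, since the call nearly fixes it.

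Among platelet genes Pf4, platelet factor 4, fell from 53.8 and 73.9 CPM at E18 to 4.9 and 5.23 CPM at P14 (log2 fold change -3.66 ± 0.16 SE, edgeR FDR 9.1e-08). Itga2b, an integrin subunit of the lineage, fell from 57 and 60.2 CPM at E18 to 11.6 and 11.2 CPM at P14 (log2 fold change -2.36 ± 0.11 SE, edgeR FDR 1.1e-07). The exception was Selp, P-selectin of platelets and endothelium, which rose from 1.32 and 1.36 CPM at E18 to 7.24 and 7.56 CPM at P14 (log2 fold change 2.46 ± 0.12 SE, edgeR FDR 1.8e-07). Kit, the stem cell factor receptor, fell from 38.8 and 39.7 CPM at E18 to 11 and 10.5 CPM at P14 (log2 fold change -1.86 ± 0.14 SE, edgeR FDR 2.7e-06), whereas Cd34 read 19 and 20.8 CPM at E18 and 6.28 and 11.6 CPM at P14 (log2 fold change -1.15 ± 0.25 SE, edgeR FDR 0.0025), a change under 3-fold that was over it without P14 replicate 2 (-1.65). Cd34 was called lower under library size (-2.02) and with limma (-2.03). The progenitor gene that rose, Hlf, is also made by hepatocytes and read 24.3 and 23.8 CPM at E18 and 75.4 and 73.8 CPM at P14 (log2 fold change 1.63 ± 0.12, no longer over 3-fold under library size). Prg2, a granule protein of eosinophils, differed between the duplicates (4.32 and 15.4 CPM at E18 and 2.45 and 0.774 CPM at P14), and its call of a fall was lost without E18 replicate 2, where its log2 fold change was -1.41.

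Most T and NK cell genes took the other direction. Of 21 tested 15 rose and 1 fell (median 3.12), and 3 of them appeared. The counts were 5 rising with at least 10 reads required in every sample, where fewer genes were tested, and 6 rising and 2 falling with limma on RPKM. The summed share of the list was not higher, with 0.00454 and 0.00427% of the reads at E18 and 0.00359 and 0.00378% at P14, while its summed TMM-normalised CPM went from 28.4 and 27.8 to 41.6 and 44.2, and Lck and Cd247 were the members with the most reads at E18. Cd3e, a chain of the T cell receptor complex, gave 4 and 4 reads at E18 and 107 and 111 at P14 (log2 fold change 5.24 ± 0.43 SE, edgeR FDR 5e-06). Zap70, the kinase behind that receptor, gave 12 and 10 reads at E18 and 161 and 297 at P14 (log2 fold change 4.89 ± 0.43 SE, edgeR FDR 7.5e-06). Gzma, granzyme A of killer cells, gave 23 and 11 reads at E18 and 351 and 400 at P14 (log2 fold change 4.99 ± 0.40 SE, edgeR FDR 4e-06). These are small counts at both stages, yet each P14 sample held several times the reads of any E18 sample. Lck, a T cell kinase, went the opposite way, from 8.84 and 10.5 CPM at E18 to 3.2 and 3.16 CPM at P14 (log2 fold change -1.60 ± 0.24 SE, edgeR FDR 0.0003). That call was lost without E18 replicate 2 or without P14 replicate 2, where the log2 fold changes were -1.46 and -1.58. B cell genes rose in 3 of 16 (Dntt, Ms4a1 and Fcrla) and fell in 0, a share of 18.75% near the 13.8% of all tested genes that rose (median 0.59, and -0.271 with 3 rising and 2 falling under library size). Without E18 replicate 2 the rising B cell genes were 5, with Cd79a (1.76) among them.

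The resident cells of the sinusoid gained in some of their genes. Of 16 tested Kupffer cell and macrophage genes 4 rose and 0 fell, and the list median of 0.36 turned to -0.505 under library size, with the count unchanged. The rising share was 25%, against 13.8% of all tested genes. Clec4f, a lectin that marks Kupffer cells, rose from 17.6 and 26 CPM at E18 to 172 and 151 CPM at P14 (log2 fold change 2.89 ± 0.18 SE, edgeR FDR 8.8e-07). Vsig4, a complement receptor of the same cells, rose from 1.28 and 1.9 CPM at E18 to 41.6 and 33.9 CPM at P14 (log2 fold change 4.57 ± 0.19 SE, edgeR FDR 7.5e-08). Cd163, the receptor that takes up haemoglobin bound to haptoglobin, rose from 0.195 and 0.27 CPM at E18 to 4.64 and 3.21 CPM at P14 (log2 fold change 4.08 ± 0.25 SE, edgeR FDR 6.6e-07). Timd4, another Kupffer marker, read 12.1 and 17.7 CPM at E18 and 17.4 and 16.1 CPM at P14 (log2 fold change 0.17 ± 0.19 SE, edgeR FDR 0.45). The list thus held strong rises in single genes beside markers with no call. Antigen presentation rose as well, with 8 of 11 dendritic cell and MHC class II genes called higher and 0 lower (median 2.31, 5 of 11 under library size). H2-Ab1, a class II chain, rose from 1.84 and 2.78 CPM at E18 to 26.7 and 28.1 CPM at P14 (log2 fold change 3.57 ± 0.29 SE, edgeR FDR 4e-06). Cd74, the invariant chain, rose from 4.92 and 8.77 CPM at E18 to 83.5 and 84.5 CPM at P14 (log2 fold change 3.62 ± 0.31 SE, edgeR FDR 5.8e-06), whereas Itgax, which marks dendritic cells, read 0.418 and 0.597 CPM at E18 and 0.774 and 0.965 CPM at P14, under 3-fold.

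All 12 tested genes of MHC class I presentation and the immunoproteasome rose (median 2.57, 7 of 12 under library size). Nlrc5, the factor that drives class I genes, rose from 0.216 and 0.204 CPM at E18 to 8.12 and 9.67 CPM at P14 (log2 fold change 5.39 ± 0.28 SE, edgeR FDR 2.6e-07). H2-D1, a class I heavy chain, rose from 16.6 and 18.1 CPM at E18 to 195 and 194 CPM at P14 (log2 fold change 3.49 ± 0.10 SE, edgeR FDR 1.3e-08). B2m, the light chain, rose from 209.9 and 266 CPM at E18 to 1279.8 and 1295 CPM at P14 (log2 fold change 2.44 ± 0.14 SE, edgeR FDR 4.4e-07) but was under 3-fold by library size. Interferon-induced Cxcl9, a chemokine that draws T cells, was among the genes that appeared (6 and 12 reads at E18 and 492 and 546 at P14).

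In endothelium 9 of 24 tested genes rose and 0 fell (median 1.22, 5 rising and 1 falling under library size). Clec4g, a lectin of liver sinusoidal endothelium, rose from 6.62 and 6.62 CPM at E18 to 108 and 109.5 CPM at P14 (log2 fold change 4.04 ± 0.11 SE, edgeR FDR 1.1e-08). Fcgr2b, an Fc receptor of the same cells, rose from 3.47 and 3.43 CPM at E18 to 46.1 and 52.1 CPM at P14 (log2 fold change 3.83 ± 0.11 SE, edgeR FDR 1.3e-08). Wnt9b, a signal that endothelium near the central vein sends to hepatocytes, rose from 0.245 and 0.376 CPM at E18 to 2.29 and 3.08 CPM at P14 (log2 fold change 3.12 ± 0.25 SE, edgeR FDR 4.4e-06). Stab2, a scavenger receptor of sinusoidal endothelium, was higher by less than 3-fold, with 69.3 and 52.6 CPM at E18 and 161 and 151 CPM at P14 (log2 fold change 1.35 ± 0.13 SE, edgeR FDR 1.4e-05). Lyve1, a hyaluronan receptor of sinusoidal and lymphatic endothelium, was lower by less than 3-fold, with 47.1 and 43.1 CPM at E18 and 27.2 and 17 CPM at P14 (log2 fold change -1.03 ± 0.19 SE, edgeR FDR 0.00084), and was called lower under library size (-1.89). The general endothelial gene Pecam1 read 26.2 and 24.5 CPM at E18 and 47.6 and 48.7 CPM at P14 (log2 fold change 0.93 ± 0.12). Genes of sinusoidal endothelium thus differed in size and direction of change, and differences between genes were not tested.

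Stellate cells and fibroblasts had 4 of 17 tested genes higher and 0 lower (median 0.70, and -0.170 under library size with 3 higher, while 1 was lower without P14 replicate 2). The rising share of the list was 23.53%, against 13.8% of all tested genes. Lrat, which stores vitamin A as retinyl ester in stellate cells, rose from 7.04 and 5.13 CPM at E18 to 48.2 and 50.4 CPM at P14 (log2 fold change 3.02 ± 0.16 SE, edgeR FDR 2.9e-07). Rgs5, a signalling regulator of pericytes, rose from 1.12 and 0.817 CPM at E18 to 10.1 and 10.6 CPM at P14 (log2 fold change 3.41 ± 0.21 SE, edgeR FDR 7.9e-07). Col1a1, the fibrillar collagen of scar and connective tissue, read 124 and 109.7 CPM at E18 and 73.5 and 137 CPM at P14 (log2 fold change -0.15 ± 0.25 SE, edgeR FDR 0.61), and the P14 samples differed from each other. Acta2, smooth muscle actin, read 34.6 and 24.1 CPM at E18 and 7.54 and 32.2 CPM at P14. Of 7 listed adipocyte genes only 2, Adipoq and Cidec, were tested, and both rose. Adipoq gave 9 and 5 reads at E18 and 22 and 19 at P14. Its call was lost under library size (1.2) and with limma (0.61). Of 6 mesothelium genes Msln rose and Wt1 fell (0 rising and 2 falling under library size). The log2 fold change of Wt1 was -1.44 without E18 replicate 2 and -1.34 without P14 replicate 1, both under 3-fold. Bile duct genes split evenly, with 4 of 11 higher and 4 lower (median -0.34). Epcam, an adhesion protein of ducts and of fetal liver progenitors, fell from 25.6 and 16.5 CPM at E18 to 3.44 and 5.81 CPM at P14 (log2 fold change -2.19 ± 0.28 SE, edgeR FDR 9.6e-05). Ggt1, the gamma-glutamyl transferase of fetal hepatocytes and ducts, fell from 14.4 and 14.5 CPM at E18 to 0.0545 and 0.191 CPM at P14 (log2 fold change -6.87 ± 0.35 SE, edgeR FDR 2.2e-07). Spp1, osteopontin, rose from 10.9 and 12 CPM at E18 to 68.7 and 67.2 CPM at P14 (log2 fold change 2.57 ± 0.13 SE, edgeR FDR 2.4e-07) and Pkhd1, a protein of duct cilia, rose from 1.97 and 2.16 CPM at E18 to 13.1 and 14.5 CPM at P14 (log2 fold change 2.74 ± 0.16 SE, edgeR FDR 4.4e-07). Krt19, the keratin of ducts, read 9.47 and 6.53 CPM at E18 and 2.47 and 10.2 CPM at P14 with overlapping stages and no call, and was called lower, at -1.68, without P14 replicate 2.

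**Figure D2:**
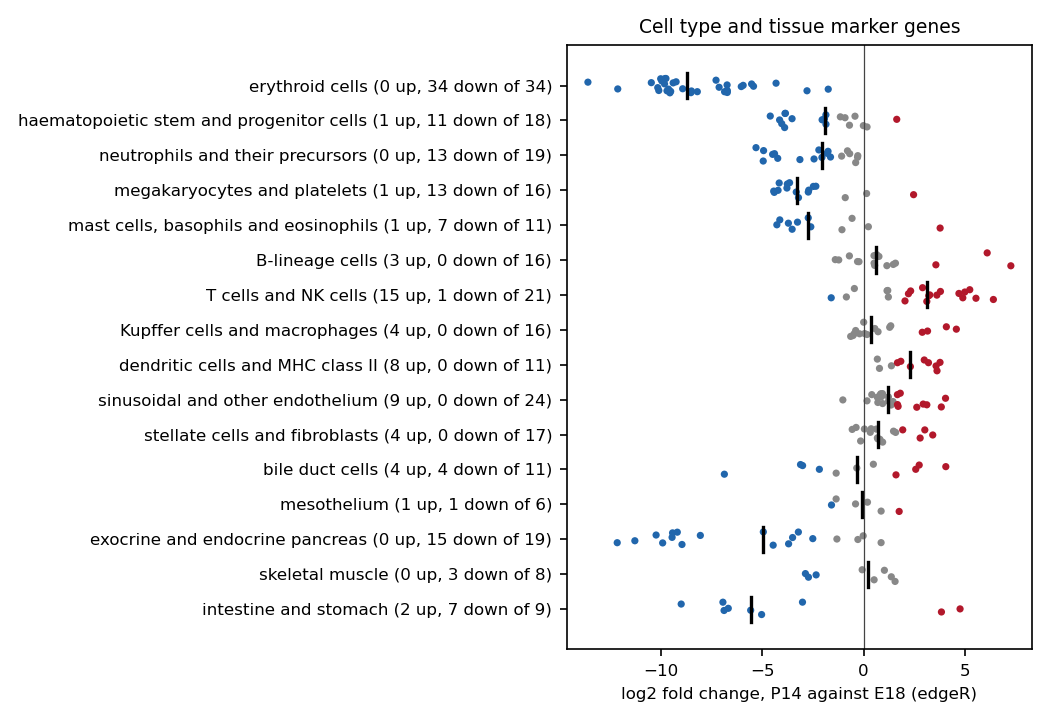
Log2 fold change of P14 against E18 (x axis, edgeR) for each tested marker gene of the cell types and tissues named at the left with their counts, with a black bar at each median and points in red when called higher, blue when lower and grey otherwise. All 34 erythroid points lie in blue at the left, with a median of -8.73, and the T and NK cell median lies at 3.12.

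Transcripts of neighbouring organs were present in the E18 libraries. Of 19 tested pancreas genes 15 fell and 0 rose (median -4.95, or -4.88 with the 3 genes that had no P14 reads at their bounds), 4 vanished, and the list held 0.0442 and 0.0925% of the reads at E18 and 0.00319 and 0.0032% at P14. Cpa1, a digestive carboxypeptidase of acinar cells, gave 7962 and 14208 reads at E18 and 1 and 5 at P14 (log2 fold change -11.29 ± 0.57 SE, edgeR FDR 6.1e-07). Cel, a bile salt-activated lipase, gave 676 and 967 reads at E18 and 0 and 0 at P14, at least 192-fold lower at P14. Ins1, for insulin, gave 116 and 312 reads at E18 and 0 and 0 at P14. Gcg, for glucagon, gave 49 and 1130 reads at E18 and 0 and 1 at P14. The pancreas genes differed between the E18 duplicates, with E18 replicate 2 holding the larger share. Intestinal genes fell in 7 of 9 and rose in 2, Fabp2 and Tff1 (median -5.58, or -5.04 with the bound of the gene without P14 reads). Cdx2, the master factor of intestinal epithelium, gave 641 and 304 reads at E18 and 1 and 0 at P14, a ratio of 654 (exact 95% counting interval 117 to 25870.0), and Muc13, a mucin of gut and pancreas, gave 1664 and 938 reads at E18 and 19 and 18 at P14 (log2 fold change -5.58 ± 0.38 SE, edgeR FDR 1.4e-06). Fabp2, a fatty acid binding protein that hepatocytes share with the intestine, went upwards, from 3.72 and 5.56 CPM at E18 to 124 and 127 CPM at P14 (log2 fold change 4.76 ± 0.18 SE, edgeR FDR 4.2e-08). Whether the E18 samples included pieces of pancreas or intestine was not tested.

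Skeletal muscle genes differed between the P14 libraries. Summed over the list, they read 10.2 and 12.2 CPM at E18 and 1.15 and 12.5 CPM at P14, lowest in P14 replicate 1. Acta1, muscle actin, gave 104 and 84 reads at E18 and 1 and 260 at P14, and Ckm, muscle creatine kinase, gave 40 and 24 reads at E18 and 8 and 120 at P14, so both were highest in P14 replicate 2. Of 8 tested muscle genes 3 (Myh8, Mylpf and Actn3) fell and 0 rose (median 0.22, and -0.651 under library size), and 4 rose without P14 replicate 1 while 7 fell without P14 replicate 2. The sex-linked transcripts also differed within stages. Xist, made by the inactive X chromosome, read 774 and 83.6 CPM at E18 and 0.545 and 570.2 CPM at P14, and the Y-linked Ddx3y read 0 and 28 CPM at E18 and 54.2 and 5.75 CPM at P14. The libraries of a stage thus differed in these transcripts, and E18 replicate 2 and P14 replicate 2 held both kinds. None of the 5 tested sex-linked genes was called, 4 were called higher without E18 replicate 2 and 1 lower without P14 replicate 2, and the part of sex in the other values was not tested.

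Genes of cell division fell over the same interval. Of 30 tested mitosis genes 29 fell and 0 rose (median -2.77), and they held 0.653 and 0.729% of the reads at E18 and 0.046 and 0.0523% at P14. Mki67, a protein of dividing cells, fell from 1196 and 1335 CPM at E18 to 53.5 and 63.1 CPM at P14 (log2 fold change -4.44 ± 0.18 SE, edgeR FDR 6.7e-08). Ccnb1, the cyclin that starts mitosis, fell from 21.9 and 26.9 CPM at E18 to 2.89 and 3.75 CPM at P14 (log2 fold change -2.88 ± 0.17 SE, edgeR FDR 5.1e-07). Cdk1, the kinase it binds, fell from 146 and 195 CPM at E18 to 38.4 and 43.2 CPM at P14 (log2 fold change -2.06 ± 0.15 SE, edgeR FDR 2.3e-06). Mki67 was still lower afterwards, with 19.6 and 14 CPM at P28 and 0.791 and 0.723 CPM in adult. Of 41 replication genes 24 fell, 15 more were lower by less than 3-fold and 0 rose (median -2.10, 39 falling under library size). Mcm2, a subunit of the replicative helicase, fell from 312 and 346 CPM at E18 to 36.3 and 33.5 CPM at P14 (log2 fold change -3.24 ± 0.18 SE, edgeR FDR 3.6e-07). Cdc6, which loads it, fell from 30 and 34.9 CPM at E18 to 2.49 and 1.86 CPM at P14 (log2 fold change -3.90 ± 0.22 SE, edgeR FDR 4.2e-07). Erythroid precursors and hepatocytes both divide at E18, and their parts in these values cannot be told apart in whole liver.

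The CCAAT box, read by the factor NF-Y, is common before cell cycle genes. The letters CCAAT stood on either strand in 21 of the 26 mitosis genes with a promoter in the table (80.77%) and in 21 of 33 replication genes (63.64%), against 35.76% of tested genes. They were not particular to falling genes, since 12 of 19 serum protein genes (63.16%), all of which rose, held them. The letters TTTGAA, a form of the cell cycle homology region, stood in 9 of the 26 mitosis genes (34.62%) and in 4 of 33 replication genes (12.12%), against 11.39% of tested genes, and likewise in 17 of 52 genes of the cytochrome P450 list (32.69%) and 17 of the 57 that appeared (29.82%). The windows of 4 mitosis genes are given with the match in capitals, in the gene's own direction, as examples of the box in genes that fell.
Cdk1, chr10:69352944-69352973, minus strand: tacgtgcaatcggATTGGcggatcccggga
Mki67, chr7:135716504-135716533, minus strand: ctggccgcctggcCCAATcgcagcacttag
Ccnb1, chr13:100786537-100786566, minus strand: tgccacgaactggCCAATgaggagcgagcg
Ccnb2, chr9:70421559-70421588, minus strand: tgcgtgcgtctacCCAATagtgcgtcagcg
Cdk1 carries the box on the opposite strand, as ATTGG.

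The oncofetal genes, active in fetal liver and silenced later, fell in 17 of 21 tested members and rose in 0 (median -3.08), and as a group took 8.41 and 6.87% of the reads at E18 and 0.851 and 1.89% at P14. Afp, alpha-fetoprotein, the main serum protein of the fetus, fell from 35366 and 27508 CPM at E18 to 103 and 181 CPM at P14 (log2 fold change -7.79 ± 0.34 SE, edgeR FDR 9.7e-08), and its level went on to 7.65 and 6.45 CPM at P28 and 4.93 and 6.02 CPM in adult. Dlk1, a membrane protein of hepatoblasts, fell from 1177 and 1422 CPM at E18 to 0.84 and 2.4 CPM at P14 (log2 fold change -9.65 ± 0.45 SE, edgeR FDR 1.3e-07). Lin28b, which blocks the maturation of let-7 microRNAs, gave 3081 and 3058 reads at E18 and 2 and 2 at P14 (log2 fold change -9.97 ± 0.26 SE, edgeR FDR 8e-08) and vanished. Trim71, an RNA-binding partner of the same pathway, gave 509 and 314 reads at E18 and 2 and 2 at P14 and vanished too. Igf2bp1, which binds fetal growth factor mRNA, fell from 40.2 and 34 CPM at E18 to 0.153 and 0.123 CPM at P14 (log2 fold change -8.05 ± 0.26 SE, edgeR FDR 1.8e-08). These regulators were at a few reads in both P14 samples.

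H19 and Igf2, an imprinted pair of neighbours on chromosome 7, kept another timing. H19, a non-coding RNA, read 9747 and 9716 CPM at E18 and 8757 and 18957 CPM at P14 (log2 fold change 0.51 ± 0.35 SE, edgeR FDR 0.22), and then 4.2 and 2.41 CPM at P28 and 0.773 and 0.422 CPM in adult. Igf2, a growth factor of the fetus, read 2977 and 3037 CPM at E18 and 582.3 and 2541 CPM at P14 (log2 fold change -0.94 ± 0.50 SE, edgeR FDR 0.12), and then 0.7 and 0.602 CPM at P28 and 0.791 and 0.964 CPM in adult. The P14 samples differed from each other in both genes, with replicate 2 well above replicate 1. With all samples kept, Igf2 was called lower under library size (-1.82) and with limma (-2.16). Without P14 replicate 2 its log2 fold change was -2.35. For H19 no difference between E18 and P14 was called with 2 samples a stage, which does not show that the levels were alike.

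Another imprinted domain, between Dlk1 and Dio3 on chromosome 12, changed along its length. Meg3 and Rian, the non-coding RNAs made from the maternal copy, both fell. Meg3 went from 729 and 509.9 CPM at E18 to 38.1 and 58.2 CPM at P14 (log2 fold change -3.69 ± 0.24 SE, edgeR FDR 9e-07). Rian went from 221 and 182 CPM at E18 to 7.52 and 11.1 CPM at P14 (log2 fold change -4.44 ± 0.25 SE, edgeR FDR 3.7e-07). Mirg, the microRNA host at the far end, fell from 30 and 22.2 CPM at E18 to 1.03 and 1.21 CPM at P14 (log2 fold change -4.54 ± 0.21 SE, edgeR FDR 1.4e-07). Rtl1, a retrotransposon-derived gene, gave 1029 and 971 reads at E18 and 3 and 7 at P14 and vanished (log2 fold change -7.08 ± 0.36 SE, edgeR FDR 6.8e-07). Dio3, the deiodinase at the boundary, read 0.699 and 0.564 CPM at E18 and 1.24 and 1.36 CPM at P14 (log2 fold change 1.04 ± 0.27 SE, edgeR FDR 0.0067), under 3-fold and upwards. Between these ends lie 58 microRNA entries of the files, of which 28 were tested, 27 fell and 0 rose (median -4.78), and 7 vanished. The one with no call was Mir1247, at a log2 fold change of 0.87. Over all 282 tested microRNA genes 79 fell and 26 rose (median -0.65). Neighbouring entries share the long host transcripts, so they are not independent of each other.

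The mature microRNAs of 6 of these vanished genes are given with the seed in capitals (RefSeq, GRCm38.p6), since they are the products that the lost primary transcripts carry. Their seeds differ from each other. Mir370 gave 468 and 208 reads at E18 and 8 and 8 at P14 (log2 fold change -4.82 ± 0.52 SE, edgeR FDR 5.7e-05). Mir409 gave 263 and 161 reads at E18 and 5 and 5 at P14 (log2 fold change -4.83 ± 0.42 SE, edgeR FDR 1.7e-05). Mir369 gave 305 and 177 reads at E18 and 6 and 5 at P14 (log2 fold change -4.87 ± 0.44 SE, edgeR FDR 1.9e-05). The other 3 shown had like counts, with Mir341 at 405 and 187 reads at E18 and 7 and 8 at P14, Mir541 at 267 and 172 reads at E18 and 4 and 4 at P14 and Mir412 at 294 and 177 reads at E18 and 4 and 6 at P14.
miR-341-3p, chr12:109611556-109611576, plus strand: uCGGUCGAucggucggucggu
miR-370-3p, chr12:109618305-109618326, plus strand: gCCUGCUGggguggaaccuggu
miR-541-5p, chr12:109742422-109742446, plus strand: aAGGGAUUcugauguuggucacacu
miR-409-3p, chr12:109743204-109743225, plus strand: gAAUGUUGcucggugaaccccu
miR-412-5p, chr12:109743303-109743325, plus strand: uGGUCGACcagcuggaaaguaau
miR-369-3p, chr12:109743466-109743486, plus strand: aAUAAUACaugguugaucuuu

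**Figure D3:**
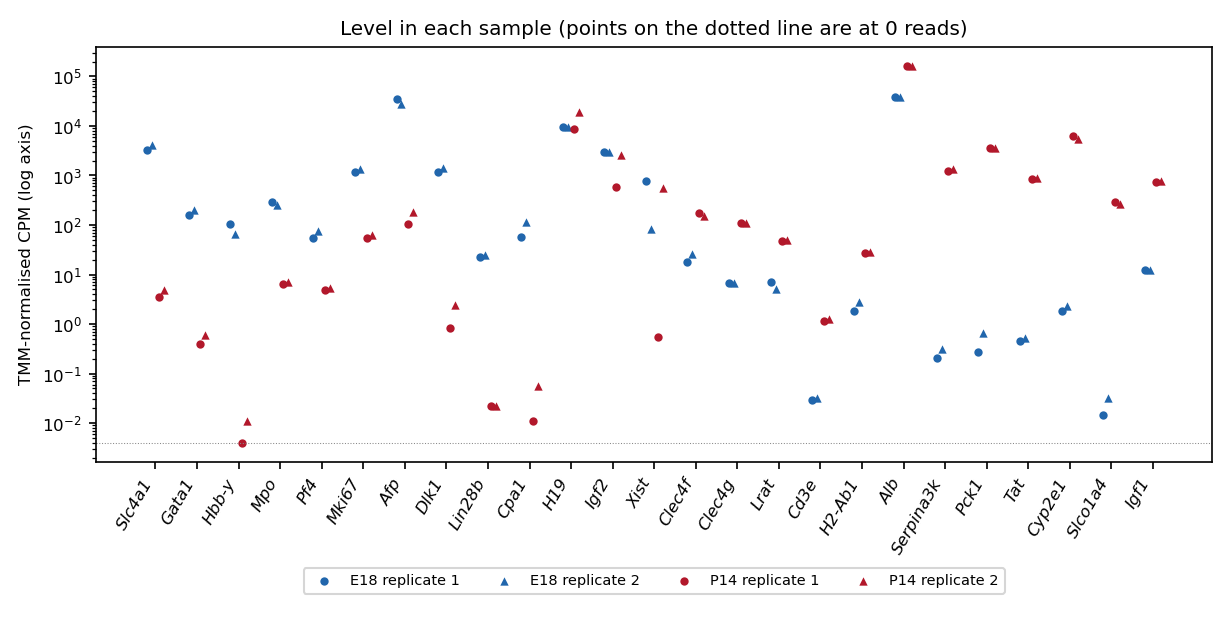
TMM-normalised CPM (y axis, log scale) of 25 genes in each of the 4 samples, blue for E18 and red for P14, circles for replicate 1 and triangles for replicate 2, with points on the dotted line at 0 reads. Slc4a1, Gata1, Afp and Lin28b lie far lower at P14, Pck1, Tat, Cyp2e1 and Slco1a4 far higher, and for H19, Igf2 and Xist the replicates of a stage differ.

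Secreted proteins of the hepatocyte rose. All 25 tested serum protein genes rose (median 2.99, 15 of 25 under library size), and they held 11.9 and 10.7% of the reads at E18 and 34.2 and 34.3% at P14. Later their share was 24.9 and 23.9% at P28 and 18.8 and 16.8% in adult. Alb, albumin, rose from 38314 and 38405 CPM at E18 to 163456 and 163611 CPM at P14 (log2 fold change 2.09 ± 0.19 SE, edgeR FDR 1e-05), a change that was under 3-fold by library size. Serpina3k, a protease inhibitor, gave 29 and 38 reads at E18 and 112325 and 122322 at P14 (log2 fold change 12.29 ± 0.28 SE, edgeR FDR 5.7e-09). Azgp1, a zinc-binding glycoprotein that acts on fat, gave 7 and 11 reads at E18 and 69178 and 70944 at P14 (log2 fold change 13.43 ± 0.22 SE, edgeR FDR 3e-09) and appeared. Apoc3, the inhibitor of lipoprotein lipase on triglyceride-rich particles, rose from 2.72 and 2.52 CPM at E18 to 979.9 and 1036 CPM at P14 (log2 fold change 8.58 ± 0.16 SE, edgeR FDR 3e-09). Alb was already high before birth, while Serpina3k and Azgp1 started from a handful of reads.

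Of 36 coagulation and complement genes 31 rose and 0 fell (median 2.27, 14 of 36 under library size). Mbl2, a lectin that starts complement, rose from 3.85 and 3.5 CPM at E18 to 536 and 645 CPM at P14 (log2 fold change 7.33 ± 0.18 SE, edgeR FDR 6.4e-09). F2, prothrombin, was high at E18 and rose from 616 and 619 CPM at E18 to 3122 and 3194 CPM at P14 (log2 fold change 2.35 ± 0.11 SE, edgeR FDR 1.5e-07), under 3-fold by library size. Acute phase and iron genes rose in 12 of 20 and fell in 2 (median 2.44). Hp, haptoglobin, which binds free haemoglobin, rose from 42.7 and 63.9 CPM at E18 to 6379.6 and 6299 CPM at P14 (log2 fold change 6.89 ± 0.23 SE, edgeR FDR 2.2e-08). The metal-binding metallothioneins were the 2 that fell. Mt2 went from 438 and 620.5 CPM at E18 to 24.9 and 25.7 CPM at P14 (log2 fold change -4.39 ± 0.20 SE, edgeR FDR 1.1e-07). Mt1 went from 832 and 1129 CPM at E18 to 149.6 and 138 CPM at P14 (log2 fold change -2.77 ± 0.16 SE, edgeR FDR 5.2e-07). Hamp, hepcidin, the hormone that closes iron export, read 0.533 and 0.515 CPM at E18 and 0.393 and 0.325 CPM at P14 (log2 fold change -0.54 ± 0.20 SE, edgeR FDR 0.038) and later read 252 and 316 CPM at P28 and 2006 and 1968 CPM in adult.

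Genes of glucose production rose, with Pck1 and G6pc under 100 reads in each E18 sample. Of 7 gluconeogenesis genes 6 rose and 1 fell (median 1.95, 3 rising under library size), and the list held 0.0433 and 0.0462% of the reads at E18 and 0.52 and 0.569% at P14. Pck1, the cytosolic enzyme that commits the pathway, gave 38 and 81 reads at E18 and 328608 and 315443 at P14 (log2 fold change 12.91 ± 0.40 SE, edgeR FDR 1.7e-08) and later read 2877 and 3184 CPM at P28 and 3267 and 2719 CPM in adult. G6pc, the phosphatase that releases glucose, gave 40 and 17 reads at E18 and 45614 and 75134 at P14 (log2 fold change 11.58 ± 0.74 SE, edgeR FDR 8.8e-07). Fbp1, the step between them, rose from 16.9 and 21.8 CPM at E18 to 1171 and 1485 CPM at P14 (log2 fold change 6.10 ± 0.20 SE, edgeR FDR 2e-08). Pck2, the mitochondrial form of the first enzyme, fell from 70.1 and 61 CPM at E18 to 7.25 and 9.02 CPM at P14 (log2 fold change -3.01 ± 0.13 SE, edgeR FDR 8.5e-08). In the lists of glucose use and storage a smaller part of the genes was called. Glycolysis had 4 of 24 genes higher and 4 lower (median -0.65, 3 higher and 11 lower under library size). Each share was 16.67%, near the 13.8% higher and 15.4% lower of all tested genes. Glycogen metabolism had 4 of 10 genes (Pygl, Ugp2, Ppp1r3b and Ppp1r3c) higher and 0 lower (median 1.03, 1 of 10 under library size).

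Hk1, the hexokinase of red cells and many tissues, fell from 266 and 254 CPM at E18 to 8.37 and 9.01 CPM at P14 (log2 fold change -4.90 ± 0.10 SE, edgeR FDR 4.7e-09). Hk2 fell too (from 15.8 and 14.2 CPM at E18 to 2.26 and 2.18 CPM at P14), as did Slc2a1, the glucose carrier of red cells and fetal tissues, from 489 and 544 CPM at E18 to 27.5 and 22.8 CPM at P14 (log2 fold change -4.36 ± 0.23 SE, edgeR FDR 2.6e-07). Khk, the first enzyme for fructose, rose from 24.1 and 31.8 CPM at E18 to 412 and 388 CPM at P14 (log2 fold change 3.84 ± 0.15 SE, edgeR FDR 5e-08). Ppp1r3b, which brings the phosphatase to glycogen, rose from 28.8 and 21.9 CPM at E18 to 499 and 362 CPM at P14 (log2 fold change 4.08 ± 0.27 SE, edgeR FDR 1.2e-06), while Gys2, the liver glycogen synthase, read 68.4 and 72 CPM at E18 and 105 and 95.8 CPM at P14 (log2 fold change 0.52 ± 0.20 SE, edgeR FDR 0.044).

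Fat burning and ketone synthesis rose in 27 of 31 tested genes and fell in 1 (median 2.50, 18 of 31 under library size), with 0.446 and 0.453% of the reads at E18 and 1.72 and 1.65% at P14. Cpt1a, the gate by which long fatty acids enter mitochondria, rose from 23.1 and 21 CPM at E18 to 563 and 543 CPM at P14 (log2 fold change 4.65 ± 0.11 SE, edgeR FDR 6.2e-09). Ppara, the nuclear receptor that drives fat burning and ketone synthesis, rose from 62.6 and 47.4 CPM at E18 to 285 and 339 CPM at P14 (log2 fold change 2.50 ± 0.15 SE, edgeR FDR 6e-07). Its well known target Cyp4a14, an omega-hydroxylase, gave 23 and 12 reads at E18 and 22942 and 20600 at P14 (log2 fold change 10.80 ± 0.22 SE, edgeR FDR 3.8e-09). Fgf21, a hormone of fasting and another target, gave 13 and 19 reads at E18 and 820 and 446 at P14 (log2 fold change 5.81 ± 0.50 SE, edgeR FDR 6.7e-06). Acot1, a cytosolic thioesterase and the exception of the list, fell from 4.13 and 5.91 CPM at E18 to 0.993 and 1.03 CPM at P14 (log2 fold change -2.31 ± 0.25 SE, edgeR FDR 2.9e-05).

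Fatty acid synthesis rose in 8 of 16 and fell in 1 (median 1.30), yet its core enzyme was not among the rising genes. Fasn, fatty acid synthase, read 152 and 133 CPM at E18 and 99.3 and 91 CPM at P14 (log2 fold change -0.58 ± 0.15 SE, edgeR FDR 0.006) and Scd1, the desaturase that makes oleate, read 47.8 and 83 CPM at E18 and 42.2 and 42 CPM at P14 (log2 fold change -0.64 ± 0.28 SE, edgeR FDR 0.065), both under 3-fold. Elovl6, which lengthens the product of synthase, fell from 42.2 and 38.3 CPM at E18 to 6.5 and 6.75 CPM at P14 (log2 fold change -2.60 ± 0.14 SE, edgeR FDR 3.4e-07). The enzymes that modify dietary polyunsaturated fats rose. Elovl5 went from 38.1 and 37.4 CPM at E18 to 918 and 972 CPM at P14 (log2 fold change 4.65 ± 0.19 SE, edgeR FDR 7.2e-08). Fads2 went from 65.3 and 66 CPM at E18 to 639 and 589 CPM at P14 (log2 fold change 3.23 ± 0.12 SE, edgeR FDR 4e-08). Thrsp, a regulator of fat synthesis, appeared, with 11 and 12 reads at E18 and 4309 and 3606 at P14.

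Cholesterol synthesis fell in part. Of 23 tested genes 10 fell and 2 rose (median -0.96, 15 and 0 under library size). Sqle, squalene epoxidase, fell from 122 and 118 CPM at E18 to 6.77 and 7.59 CPM at P14 (log2 fold change -4.06 ± 0.15 SE, edgeR FDR 3.5e-08). Its 4 samples fell into their stages without overlap, which the call nearly fixes. The late enzymes Ebp and Sc5d rose by 1.99 and 2.10 on the log2 scale, both under 3-fold by library size. The list took 0.311 and 0.303% of the reads at E18 and 0.148 and 0.148% at P14, and 0.328 and 0.353% at P28 and 0.348 and 0.364% in adult, so the share was lowest at P14.

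Bile acid synthesis and transport rose in 18 of 21 genes and fell in 0 (median 4.01), and the list held 0.0645 and 0.0595% of the reads at E18 and 0.524 and 0.506% at P14. Cyp7a1, the first and rate-limiting enzyme, rose from 8.91 and 5.54 CPM at E18 to 122 and 111 CPM at P14 (log2 fold change 4.01 ± 0.30 SE, edgeR FDR 2.9e-06). Cyp8b1, which sets the share of cholic acid, rose from 21.1 and 12.1 CPM at E18 to 174 and 288 CPM at P14 (log2 fold change 3.80 ± 0.32 SE, edgeR FDR 5.9e-06). Slc10a1, the carrier that returns bile acids from blood, rose from 11.5 and 11.8 CPM at E18 to 464 and 447 CPM at P14 (log2 fold change 5.29 ± 0.12 SE, edgeR FDR 5.2e-09). Abcg5, an exporter of sterols into bile, gave 62 and 46 reads at E18 and 34259 and 32400 at P14 (log2 fold change 9.80 ± 0.15 SE, edgeR FDR 2.7e-09). Slco1a4, an organic anion carrier, gave 2 and 4 reads at E18 and 26921 and 23352 at P14 (log2 fold change 13.48 ± 0.47 SE, edgeR FDR 2.7e-08) and appeared. Slco1a4 stood higher at P14 than later, with 44.9 and 35.6 CPM at P28 and 58.2 and 32.4 CPM in adult, while Slc10a1 went on to 1060.4 and 1036 CPM at P28 and 1178 and 1270.4 CPM in adult.

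Nitrogen disposal and amino acid breakdown rose nearly throughout. All 8 tested urea cycle genes rose (median 3.42), with 0.0867 and 0.0906% of the reads at E18 and 0.625 and 0.531% at P14. Of the amino acid catabolism genes 30 of 32 rose with 0 falling (median 3.48). Cps1, the entry to the urea cycle, rose from 269 and 239.9 CPM at E18 to 3901 and 2937 CPM at P14 (log2 fold change 3.75 ± 0.17 SE, edgeR FDR 1.3e-07). Arg1, which releases urea, rose from 39.4 and 56.8 CPM at E18 to 1245 and 1167 CPM at P14 (log2 fold change 4.65 ± 0.21 SE, edgeR FDR 1.1e-07). Tat opens the breakdown of tyrosine and gave 62 and 63 reads at E18 and 76970 and 78902 at P14 (log2 fold change 10.81 ± 0.24 SE, edgeR FDR 4.8e-09). Tdo2 opens that of tryptophan and gave 36 and 25 reads at E18 and 63424 and 56042 at P14 (log2 fold change 11.46 ± 0.21 SE, edgeR FDR 3e-09). Cps1 and Arg1 were thus expressed at E18, while Tat and Tdo2 had under 100 reads in each E18 sample.

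**Figure D4:**
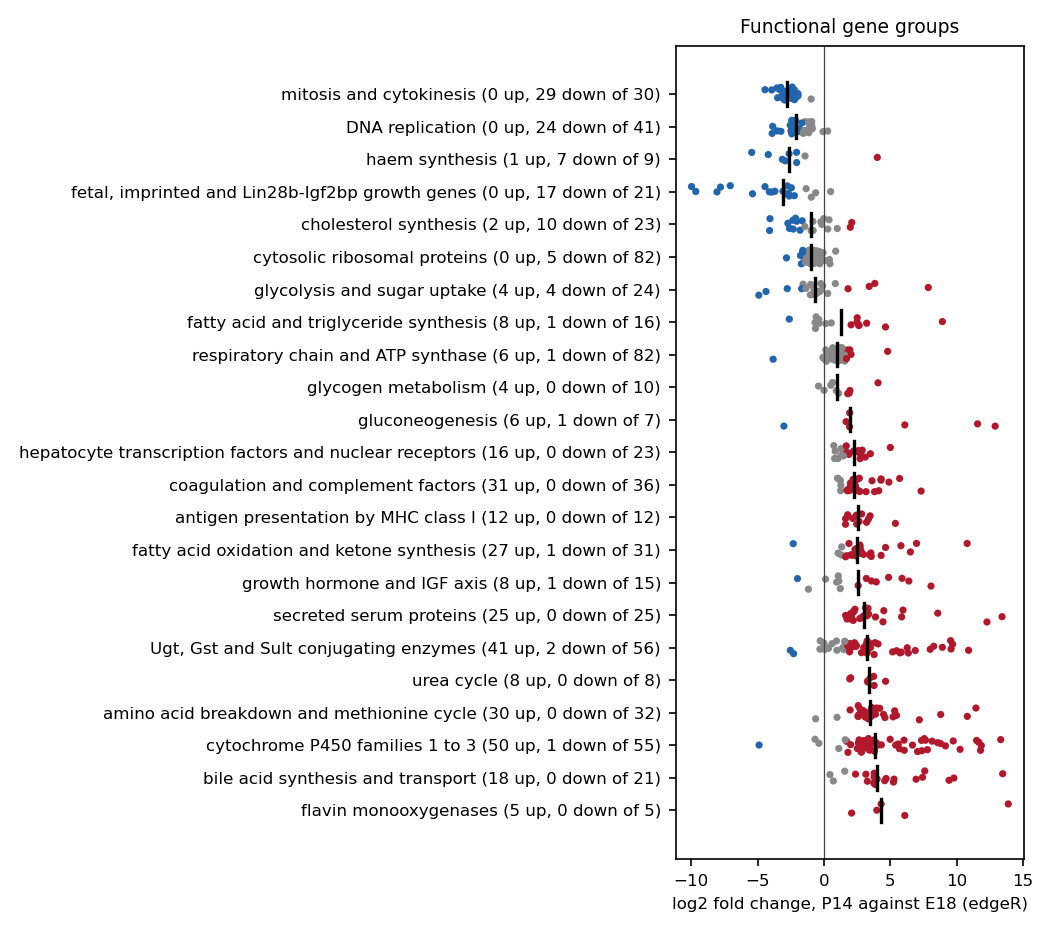
Log2 fold change of P14 against E18 (x axis, edgeR) for the tested genes of 23 functional groups named at the left with their counts, a black bar at each median, red for called higher, blue for called lower and grey for neither. Mitosis, replication and heme synthesis lie to the left (medians -2.77, -2.10 and -2.62), and bile acid, P450 and Fmo genes lie to the right (medians 4.01, 3.82 and 4.32).

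Genes for the clearance of drugs and foreign compounds rose widely. Of the 79 genes that appeared 27 were in a list, 11 of them P450 genes and 6 conjugation genes. Of 55 tested cytochrome P450 genes of families 1 to 3 there were 50 that rose and 1 that fell (median 3.82). Many belong to clusters of close paralogues, so reads may be shared among them. They held 0.0328 and 0.0295% of the reads at E18 and 0.957 and 0.835% at P14, and later 1.51 and 1.59% at P28 and 2.24 and 2.2% in adult. Cyp2e1, which oxidises ethanol and acetone, rose from 1.82 and 2.28 CPM at E18 to 6402 and 5544 CPM at P14 (log2 fold change 11.51 ± 0.23 SE, edgeR FDR 3.8e-09) and later read 8180.1 and 8431 CPM at P28 and 14443 and 13318 CPM in adult. Cyp1a2, which oxidises aromatic amines and caffeine, gave 12 and 20 reads at E18 and 42047 and 41907 at P14 (log2 fold change 11.87 ± 0.25 SE, edgeR FDR 4.5e-09). Cyp2c29 gave 0 and 6 reads at E18 and 23223 and 22197 at P14 (log2 fold change 13.33 ± 0.41 SE, edgeR FDR 1.6e-08). The P450 gene that fell was Cyp2w1, an enzyme of fetal tissues, with 134 and 50 reads at E18 and 4 and 0 at P14.

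Of 56 conjugation genes 41 rose and 2 fell (median 3.22), and 6 appeared. Sult2a1, a sulfotransferase of steroids and bile acids, gave 1 and 4 reads at E18 and 3651 and 3487 at P14 (log2 fold change 10.91 ± 0.28 SE, edgeR FDR 2e-08). Sult4a1 and Gstm5 were the 2 that fell. Gstm5, a glutathione transferase, fell from 107 and 117 CPM at E18 to 19.1 and 19.8 CPM at P14 (log2 fold change -2.53 ± 0.09 SE, edgeR FDR 3.2e-08). The Ugt1a entries share exons and read alike, so they are not independent, though each was counted on its own in the 41 of 56 and the median. All 5 flavin monooxygenases rose (median 4.32). The deiodinase Dio1, which activates thyroid hormone, gave 5 and 2 reads at E18 and 29730 and 30147 at P14 (log2 fold change 13.52 ± 0.39 SE, edgeR FDR 1.3e-08) and appeared. Of 20 tested major urinary protein genes 3 (Mup3, Mup20 and Mup21) rose and 0 fell (1 rose without E18 replicate 1 or without P14 replicate 1, and 5 without P14 replicate 2). The rising share of 15% was near the 13.8% of all tested genes. Mup11 and Mup14 had 0 reads in every E18 and P14 sample, and Mup21 gave 1 read in all at E18 and 10 at P14. The summed share of the Mup list was 0 and 1.38e-05% of the reads at E18 and 0.000175 and 0.000145% at P14, and later 0.0946 and 0.107% at P28 and 0.209 and 0.216% in adult, and Mup reads are split among near-identical copies.

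Growth hormone signalling rose in 8 of 15 genes and fell in 1 (median 2.59). Igf1, the growth factor of postnatal life, rose from 12.4 and 12.6 CPM at E18 to 721 and 766 CPM at P14 (log2 fold change 5.89 ± 0.17 SE, edgeR FDR 1.3e-08). Ghr, the growth hormone receptor, rose from 38.6 and 41.2 CPM at E18 to 482 and 474 CPM at P14 (log2 fold change 3.58 ± 0.11 SE, edgeR FDR 1.5e-08). Igfals, which holds IGF in the blood, rose from 6.87 and 9.01 CPM at E18 to 223 and 243 CPM at P14 (log2 fold change 4.88 ± 0.18 SE, edgeR FDR 3.6e-08). Prlr, the prolactin receptor, rose from 1.19 and 0.449 CPM at E18 to 239 and 209 CPM at P14 (log2 fold change 8.07 ± 0.38 SE, edgeR FDR 1.4e-07). Igf1r, the receptor for IGF, was the gene that fell, from 33.7 and 27.8 CPM at E18 to 7.32 and 8.21 CPM at P14 (log2 fold change -1.99 ± 0.17 SE, edgeR FDR 6e-06). Igfbp1, a binding protein that responds to fasting and stress, differed between the E18 duplicates (460.0 and 92.3 CPM at E18 and 287 and 317 CPM at P14) and had no call. Igf2 was not called in the main fit, and both the Igf1 and the Igf2 transcript were present in suckling liver.

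Of 23 hepatocyte transcription factor genes 16 rose and 0 fell (median 2.24, 9 of 23 under library size). Nr1i3, the receptor CAR that senses foreign compounds, rose from 3.22 and 2.82 CPM at E18 to 95.5 and 99.6 CPM at P14 (log2 fold change 5.01 ± 0.16 SE, edgeR FDR 1.7e-08). Creb3l3, a fasting-activated factor, rose from 41 and 40.3 CPM at E18 to 463 and 460.0 CPM at P14 (log2 fold change 3.51 ± 0.11 SE, edgeR FDR 1.7e-08). The core factor Hnf4a was present before birth and read 184 and 155 CPM at E18 and 677 and 578 CPM at P14 (log2 fold change 1.89 ± 0.15 SE, edgeR FDR 3.4e-06, under 3-fold by library size). Zonation genes, which mark the ends of the lobule, rose in 10 of 12 with 0 falling (median 2.90, 6 of 12 under library size). The pericentral Glul, glutamine synthetase, rose from 41.2 and 53 CPM at E18 to 182 and 206 CPM at P14 (log2 fold change 2.04 ± 0.16 SE, edgeR FDR 3.1e-06, under 3-fold by library size) and the periportal Cyp2f2 rose from 0.404 and 0.997 CPM at E18 to 132 and 99.7 CPM at P14 (log2 fold change 7.39 ± 0.38 SE, edgeR FDR 2.2e-07), so markers of both ends were higher.

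General machinery changed by smaller factors, and here the scaling decided the counts. Of 82 ribosomal protein genes 5 (Rps23, Rpl39l, Rpsa, Rps3a and Rpl3) fell and 0 rose, and 66 more were lower by less than 3-fold (median -0.94), while 58 fell under library size, and 2 fell without P14 replicate 2. Of 82 oxidative phosphorylation genes 6 rose and 1, Cox6b2, fell, and 67 more were higher by less than 3-fold (median 1.00, and 0.133 with 1 rising under library size). Among splicing factors 1 of 17 rose and 1 fell (median -0.87, 0 and 11 under library size). Esrp2, an epithelial splicing factor, rose from 25.8 and 24 CPM at E18 to 72.7 and 79.8 CPM at P14 (log2 fold change 1.61 ± 0.09 SE, edgeR FDR 3.3e-07), just over 3-fold. Its call was lost under median-ratio scaling and with DESeq2 (1.57 in both), with at least 10 reads in every sample (1.51), under library size and with limma (0.75 in both), and without E18 replicate 2 (1.57) or P14 replicate 2 (1.56). Its paralogue Esrp1 fell from 3.6 and 2.36 CPM at E18 to 0.24 and 0.628 CPM at P14 (log2 fold change -2.78 ± 0.41 SE, edgeR FDR 0.00022). Of 43 collagen genes 7 rose (16.28%) and 8 fell (18.6%), near the 13.8% and 15.4% of all tested genes (median 0.02, and -0.855 under library size). Ribosomal protein genes have many near-identical processed copies, and how reads matching several places were counted was not stated, so their values are uncertain.

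**Figure D5:**
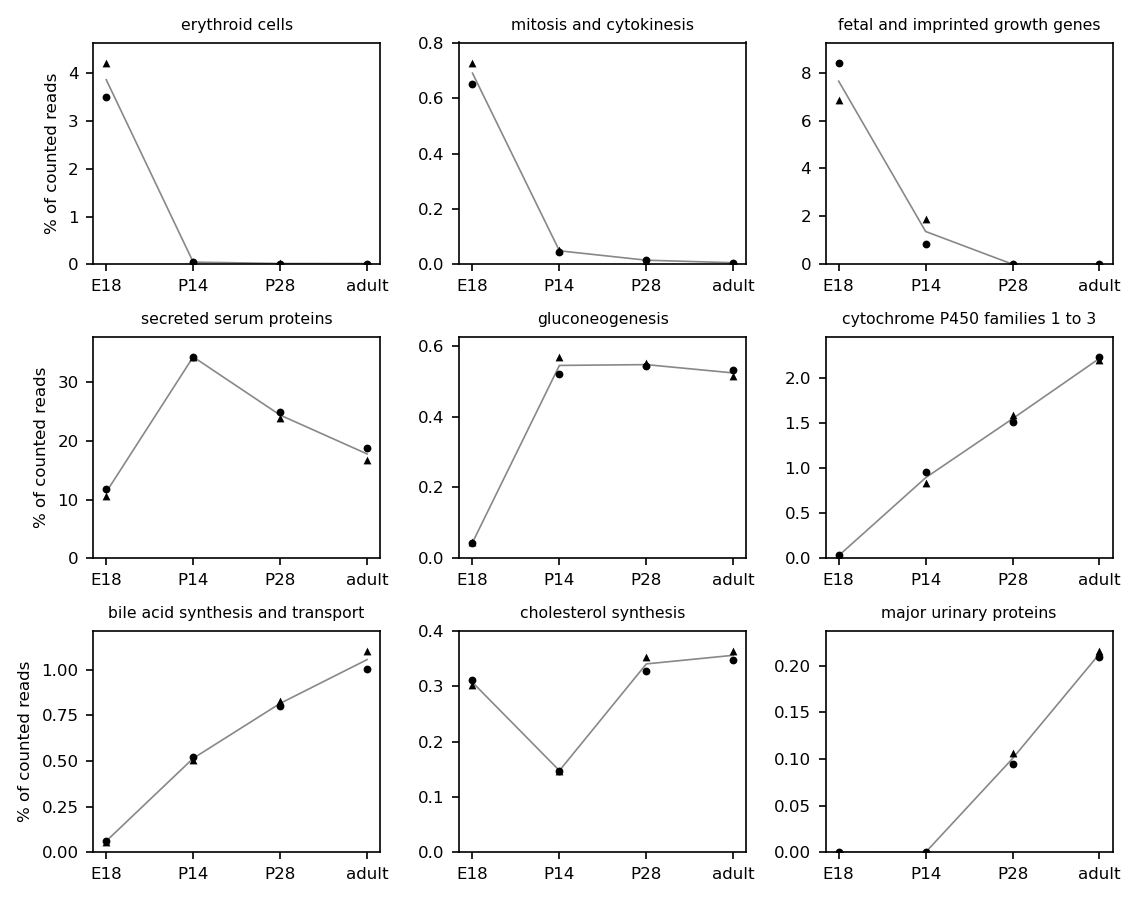
Percentage of all counted reads (y axis) held by 9 gene groups at E18, P14, P28 and adult (x axis), circles for replicate 1, triangles for replicate 2 and lines through the stage means. Erythroid transcripts held 3.5 and 4.22% of the reads at E18 and 0.0498 and 0.0468% at P14, serum protein reads are highest at P14, and the mean of the P450 group is higher at each later stage.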

How the data were processed

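Poly(A) RNA-seq of whole liver of FVB mice (wild-type FVB/NJ in the Methods) was analysed for 2 E18 and 2 P14 samples, grouped by their stage labels, with 2 P28 and 2 adult samples in the same fit. Paired reads were aligned by the authors, who deposited raw read counts per gene, without normalization, and RPKM, the count per kilobase and per 1000000 mapped reads. The labels name the build mm9 and Trizol for RNA isolation, the Methods the RNeasy kit; the aligner and strandedness are not given in the sources used here. Depth was 79509520 to 106055723 counted reads.

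Counts were filtered (filterByExpr), scaled by TMM and tested with edgeR 4.0.16 (glmQLFit and glmQLFTest, 1 coefficient per stage), and called at a Benjamini-Hochberg FDR below 0.1 and over 3-fold. The SE was the log2 fold change divided by the square root of F. Alternatives were DESeq2 1.42.0, limma 3.58.1 on log2(RPKM + 0.1), other scalings, filters and thresholds, and each sample left out in turn. Counts of 16350 genes were simulated from the E18 means with a common dispersion, with 100 genes changed 4-fold and 100 changed 8-fold. edgeR gave back 94% of the 4-fold and 100% of the 8-fold changes with 0 false calls. The simulation held neither the change in composition nor a spread that differs by gene, so it does not measure false calls in these data. An exact permutation test of 2 against 2 cannot go below p = 0.33. R 4.3.3 and Python 3.11.15 were used.

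The 46 gene lists and the comparison were chosen with earlier results of these data known, and lists are described without a set test. Named genes were the first 3 of each list, its largest called changes among genes with at least 100 reads in both samples of the higher stage, and the genes with the largest changes overall. Genes named outside this rule (Cd79a, Cd247, Acta2, Gcg, Trim71, Meg3, Rian, Mirg, Rtl1, Fgf21, Cyp2w1, Igfbp1, Cxcl9, Mir341, Mir369, Mir409, Mir412, Mir541, Mir1247, Tff1, Mup20, Mup21, and any list member named only in a count) were chosen after their values were seen. Sequences came from RefSeq on GRCm38.p6, matched by symbol, for 564 of 573 microRNA genes and 13041 of 17081 tested genes; their coordinates are not those of the files' build. Some members of the lists are not reported here by name.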

Additional observations from a re-analysis of the deposited data

How the results depend on the processing

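With 2 samples a stage, the spread of single genes rests on the model, and genes of a few reads are limited by counting. With library size alone 1266 genes rose and 5095 fell, 47 appeared and 154 vanished, and limma on log2(RPKM + 0.1), which is scaled the same way, gave 1035 rising (3761 falling). At least 10 counts in every sample left 1357 falling genes (1771 rising), because genes near 0 at one stage were no longer tested. A 2-fold threshold gave 3722 rising and 3998 falling genes. Limits of 0.2 and 0.5 CPM gave 236 that appeared and 303 that vanished, and limits of 0.05 and 2 CPM gave 30 and 19. Without a filter (2491 and 2953), with median-ratio scaling (2286 and 2709), with DESeq2 (2278 and 2551), with only the 2 stages in the fit (2340 and 2622) and at an FDR of 0.05 (2342 and 2611) the counts of rising and falling genes moved by less than 1.5 times. DESeq2 called 2277 of the 2353 rising and 2484 of the 2636 falling genes. Leaving out each sample in turn gave 2360 to 2462 rising, 2554 to 2908 falling, 82 to 102 appearing and 98 to 120 vanishing genes.

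The samples share only a replicate number, and deviations of same-numbered samples correlated at -0.119 across genes. With the replicate block 2358 genes rose and 2640 fell. With the P14 numbers crossed in the block, a choice made after seeing the data, 2357 genes rose and 2636 fell. Of the values of the 275 named genes under all alternatives 3648 were counted as the same, 64 fell short of the threshold and 61 passed it. Changes were most often under library size and limma. Among genes called in the main fit 0 values turned in direction. Genes without a call in the main fit were counted as the same even where their sign turned.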
